A study of Mus musculus with 4 samples.

Results

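The subunits of the mitochondrial respiratory chain were followed across astrocyte cultures from 4 regions of the newborn mouse brain. Members were taken by gene symbol: every probe set annotated to a single gene of the Nduf, Sdh, Uqcr or Cox4 to Cox8 families, or to Cycs, with assembly factors left out. The rule used no signal value and found 122 of the 22690 probe sets on the array, which stand for 62 of its 12393 genes. Complex I had 32 genes, complex II had 4, complex III had 8, complex IV had 17 with Ndufa4 counted there, and cytochrome c had 1.

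The respiratory chain is the set of protein complexes in the inner mitochondrial membrane that passes electrons from NADH and succinate to oxygen and pumps protons, and ATP synthase uses the resulting gradient. Complex I oxidises NADH, complex II oxidises succinate, complex III passes electrons from ubiquinone to cytochrome c, and complex IV reduces oxygen. Most subunits are encoded in the nucleus and imported, while a small group is encoded by mitochondrial DNA. Astrocytes are known for a strong glycolytic metabolism and also carry a working respiratory chain.

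The cultures came from CD-1 pups at postnatal day 3 and were prepared from the subventricular zone (SVZ), the ventral mesencephalon (VM), the olfactory bulb (OB) and the hippocampus (HC). No group carried a treatment or a genetic change: astroglia of each region were enriched by shaking the adherent cells at 200 rpm, then replated in DMEM with 10% serum and grown as monolayers, and 2 ug of total RNA was labelled. Tissue of littermates was pooled, and the design text speaks both of 4 pups and of 3, which was not settled here. One array was run per region, so differences between regions lack a replicate check and p-values are not given.

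Signals are the deposited linear intensities, with trimmed means of 400.1 to 400.2. Scaling to a common value would give such means, so they do not show that the arrays were alike. The 99th percentile of signal ran from 5619 in HC to 7377 in VM. The ratio of 3 prime to 5 prime signal, a sign of RNA quality, was 0.856 to 0.917 for Gapdh and 1.27 to 1.49 for beta-actin. Values under the median signal of all probe sets, 122.1, were set to that floor. Above it lay 11835 probe sets in HC and 11144 to 11207 in the other regions. Of the 14 astrocyte markers, 12 were above the floor on at least 1 array, and Slc1a2 and Ntsr2 were under it on all 4. The summed astrocyte marker signal was 25031 in SVZ, 15081 in VM, 25524 in OB and 36668 in HC. All 15 microglial markers were above the floor on at least 1 array, and their summed signal was 36216 in OB and 38742 in HC against 586 in SVZ and 385 in VM. Fibroblast and meningeal markers (13 of 14 above the floor, summed signal 14620 to 60264) were highest in OB, followed by VM. All 10 striated muscle markers were under the floor on every array. In RNA from a whole culture, fewer cells of a type and less RNA per cell cannot be told apart.

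Of the 62 genes, 57 were above the floor on at least 1 array and 55 on all 4. Over the whole array 7987 genes were above it on at least 1 array and 6048 on all 4. The median member signal was 2416 in SVZ, 2073 in VM, 2893 in OB and 2094 in HC.

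The 6 members whose highest and lowest regions differed by 2-fold or more were Ndufa4, Ndufv3, Sdhd, Uqcr10, Uqcr11 and Uqcrh, out of the 55 above the floor on all arrays. Over the whole array 26.7% of such genes were that far apart. A 1.5-fold range was reached by 30 members and by 57.7% of such genes. The promoters of the 6 members with a 2-fold range, from RefSeq on build GRCm38.p6, are shown. All 6 had their highest signal in OB, as did 40 of the 55 (30.6% of all genes). Each runs 5′ to 3′ on the gene's strand from 250 bases before the annotated start to 50 after it. Capitals mark matches, on either strand, to the NRF1 consensus, the ETS motif CCGGAAG or the YY1 consensus, motifs of factors known for regulating respiratory chain genes.
Ndufa4, chr6:11907401-11907700, minus strand: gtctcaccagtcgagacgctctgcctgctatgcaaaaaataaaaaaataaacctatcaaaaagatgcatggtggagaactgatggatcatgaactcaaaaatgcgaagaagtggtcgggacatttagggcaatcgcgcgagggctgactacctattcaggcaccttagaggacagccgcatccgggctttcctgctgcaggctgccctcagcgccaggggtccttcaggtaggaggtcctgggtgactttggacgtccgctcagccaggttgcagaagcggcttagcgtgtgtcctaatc
Ndufv3, chr17:31519865-31520164, plus strand: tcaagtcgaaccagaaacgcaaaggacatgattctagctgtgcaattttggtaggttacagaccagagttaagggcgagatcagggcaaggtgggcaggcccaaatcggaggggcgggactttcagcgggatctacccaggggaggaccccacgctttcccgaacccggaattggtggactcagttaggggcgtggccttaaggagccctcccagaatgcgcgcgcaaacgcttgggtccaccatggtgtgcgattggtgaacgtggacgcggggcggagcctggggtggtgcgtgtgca
Sdhd, chr9:50603800-50604099, minus strand: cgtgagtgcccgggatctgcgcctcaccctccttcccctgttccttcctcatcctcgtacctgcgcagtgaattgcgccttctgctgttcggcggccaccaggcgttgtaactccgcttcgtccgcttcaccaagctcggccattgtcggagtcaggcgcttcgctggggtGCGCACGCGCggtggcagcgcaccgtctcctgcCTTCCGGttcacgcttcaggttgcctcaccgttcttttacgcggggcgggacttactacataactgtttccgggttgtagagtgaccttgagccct
Uqcr10, chr11:4704295-4704594, minus strand: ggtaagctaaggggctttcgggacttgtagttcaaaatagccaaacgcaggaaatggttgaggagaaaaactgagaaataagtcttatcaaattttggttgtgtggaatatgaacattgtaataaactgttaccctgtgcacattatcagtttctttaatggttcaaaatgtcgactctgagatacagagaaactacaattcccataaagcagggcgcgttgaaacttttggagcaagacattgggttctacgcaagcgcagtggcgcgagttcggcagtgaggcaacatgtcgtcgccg
Uqcr11, chr10:80406772-80407071, minus strand: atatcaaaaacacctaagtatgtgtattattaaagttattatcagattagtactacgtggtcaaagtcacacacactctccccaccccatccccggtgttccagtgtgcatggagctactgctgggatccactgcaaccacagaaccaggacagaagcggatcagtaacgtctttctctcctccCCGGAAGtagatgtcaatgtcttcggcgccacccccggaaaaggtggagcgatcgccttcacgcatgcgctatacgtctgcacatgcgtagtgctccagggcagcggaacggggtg
Uqcrh, chr4:116075021-116075320, minus strand: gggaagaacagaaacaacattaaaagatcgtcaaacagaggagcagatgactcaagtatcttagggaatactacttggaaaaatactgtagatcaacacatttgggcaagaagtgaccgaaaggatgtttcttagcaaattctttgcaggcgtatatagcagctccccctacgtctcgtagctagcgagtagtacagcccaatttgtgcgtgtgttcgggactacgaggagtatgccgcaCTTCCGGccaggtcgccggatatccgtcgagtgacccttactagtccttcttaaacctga

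The Sdhd promoter held an NRF1 match and an ETS match, those of Uqcr11 and Uqcrh held an ETS match, and those of Ndufa4, Ndufv3 and Uqcr10 held none of the 3 motifs in this window. Promoters were found for 50 of the 62 members. The NRF1 motif was in 8 of them (16.0%), the ETS motif in 11 (22.0%), the YY1 motif in 3 (6.0%), and at least 1 of the 3 in 20 (40.0%). Among all 27025 genes with a promoter listed, each counted once, the shares were 5.19%, 9.93%, 0.995% and 14.6%. Array genes above the floor with a promoter, 6501 of them, had shares of 12.7%, 21.3%, 2.58% and 32.7%. The 48 members above the floor with a promoter had shares of 16.7%, 22.9%, 6.25% and 41.7%. A match is a run of letters and was not read as a binding site.

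Most subunits of the chain had their highest signal in OB, and most had their lowest in VM. Among the 55 genes above the floor on all arrays, 40 had their highest signal in OB, where 30.6% of all genes did. The lowest signal was in VM for 37 of the 55, where 27.2% of all genes had theirs. Both held for 31 members (9.56% of all genes), and 23 followed the full order of OB, SVZ, HC and VM (3.92% of all genes). SVZ was highest for 14 (24.5% of all genes) and HC for 0 (24.5%), and by its brightest probe set Cox7a2l was highest in VM (20.4%). HC was lowest for 12 members (24.4%), SVZ for 2 (23.0%) and OB for 4 (25.4%), the last being Cox6b2, Cox7a2l, Cycs and Ndufs4. For Cox7a2l, Cycs and Ndufs4 other probe sets had positive OB contrasts, as given with each gene.

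**Figure D1:**
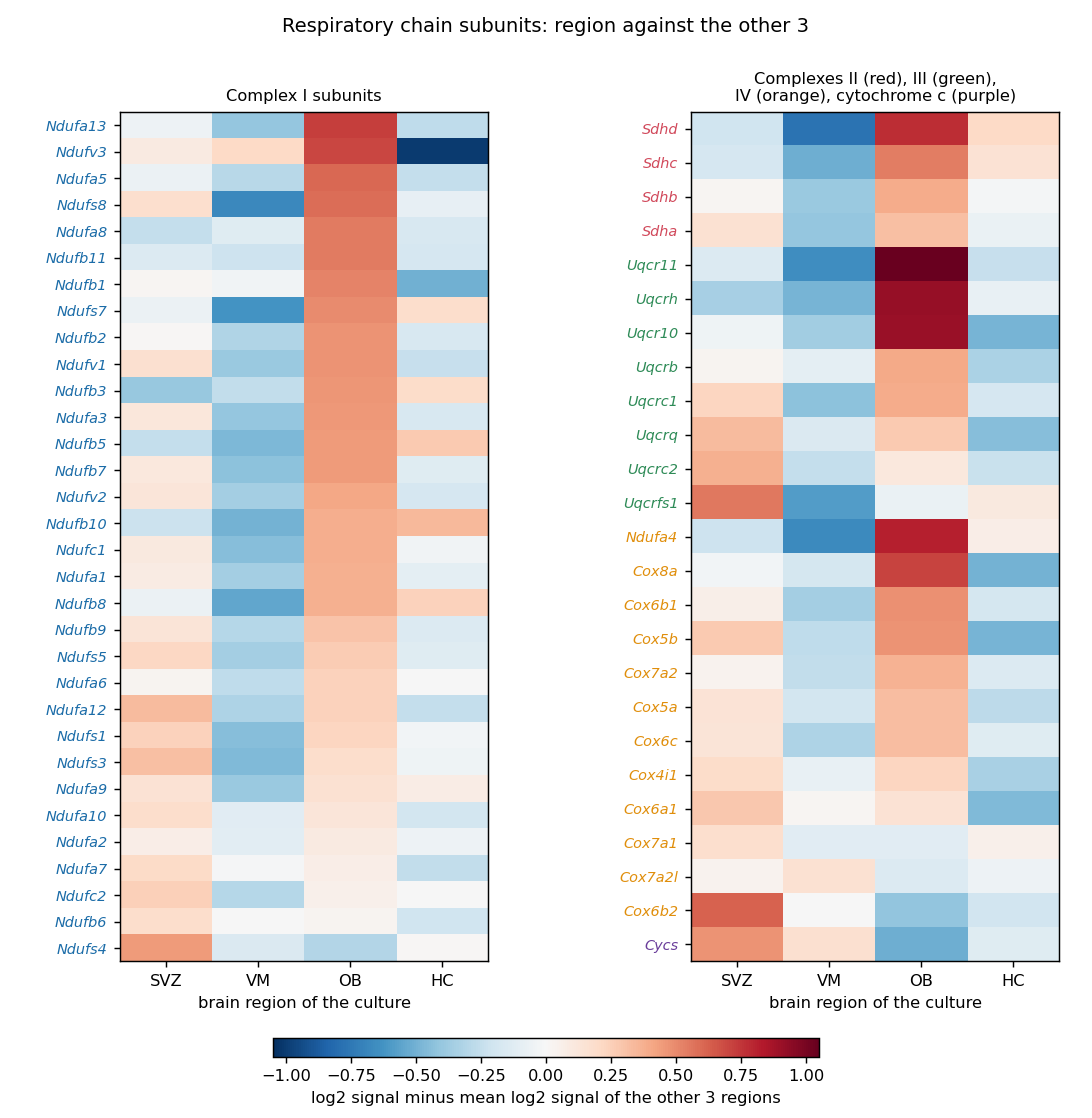
Contrast of each of the 57 member genes above the floor in the 4 cultures, as log2 signal less the average of the remaining 3 regions, with complex I on the left and the other complexes, marked by the colour of the gene names, on the right. Most genes are red (higher) in the OB column and blue (lower) in the VM column, and Ndufs4, Cox6b2 and Cycs are among the few blue ones in OB.

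The differences were small. A region's contrast is its log2 signal less the average of the remaining 3 regions, and its median over the 57 members was 0.38 in OB, 0.11 in SVZ, -0.14 in HC and -0.32 in VM. Over the 7987 genes above the floor these medians lay between -0.06 and 0.01. A set of 1149 genes had mean signals in the members' middle range, 1336 to 5622, and included the members in that range. Its medians were 0.06 in OB, 0.04 in SVZ, -0.10 in HC and 0.00 in VM. The members' HC median was thus close to that of equally bright genes, and it was -0.013 when the arrays were quantile-normalized, whereas OB and VM medians lay further from theirs. Of these equally bright genes 35.6% were highest in OB and 26.5% lowest in VM. HC was highest for 15.5% of them and lowest for 31.5%.

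**Figure D2:**
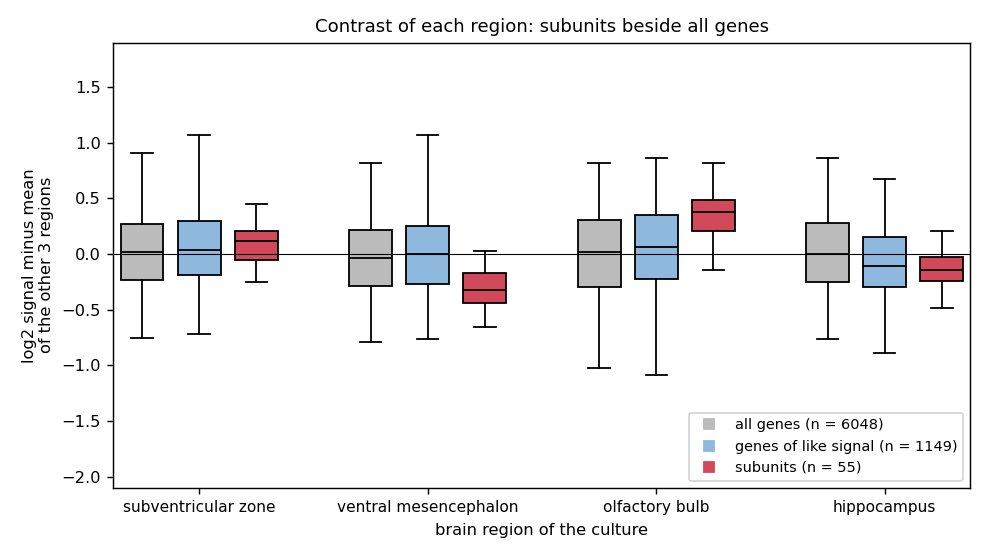
Contrast of each region, as log2 signal less the average of the remaining 3 regions, for the 55 members above the floor on all arrays (red), 1149 genes of like signal (blue) and 6048 genes in all (grey), with the median as a line, the quartiles as boxes and whiskers to percentiles 5 and 95. The red box lies wholly above 0 in OB and wholly below 0 in VM, while the grey and blue boxes span 0 in both.

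The files hold no replicate arrays, and different probe sets of one gene on the same array are the only measure of technical scatter. Over 1977 genes with several probe sets above the floor, the scatter of the contrast between probe sets of a gene was 0.27 log2 (an SD estimated from the median). Of the 55 members, 37 lay above the other regions in OB by more than this, where 28.3% of all genes did, and 34 lay below them in VM, where 27.1% did. In the opposite directions 3 members were past it in OB (26.9% of all genes) and 0 in VM (21.6%). This scatter does not include the difference between cultures, which no value here measures.

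Few single members stood clear of all other regions. At 2-fold above or below every other region 0 of the 57 members were called in any region. The shares of all genes called higher were 1.28% in SVZ, 1.57% in VM, 1.87% in OB and 2.49% in HC, and those called lower were 1.01%, 0.563%, 1.55% and 0.488%. At 1.5-fold 3 members were higher in OB than in each other region, against 4.72% of all genes, so their share was near the background. With the SVZ array left out 6 members were called there (5.66% of all genes), and with the HC array left out 5 (9.89%). One member was lower in HC at 1.5-fold, where 1.69% of all genes were.

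Between single regions OB and VM were furthest apart. The median member was lower in VM than in OB by a log2 difference of -0.51. At 1.5-fold 22 members were higher in OB (14.6% of all genes) and 0 in VM (13.2%). At 2-fold 4 members were higher in OB (5.53% of all genes). OB exceeded HC at 1.5-fold for 9 members (12.3% of all genes) and SVZ for 7 (17.1%), shares nearer to the background. SVZ exceeded VM at 1.5-fold for 3 members (12.1%), and HC exceeded it for 4 (18.9%), both below the share of all genes.

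**Figure D3:**
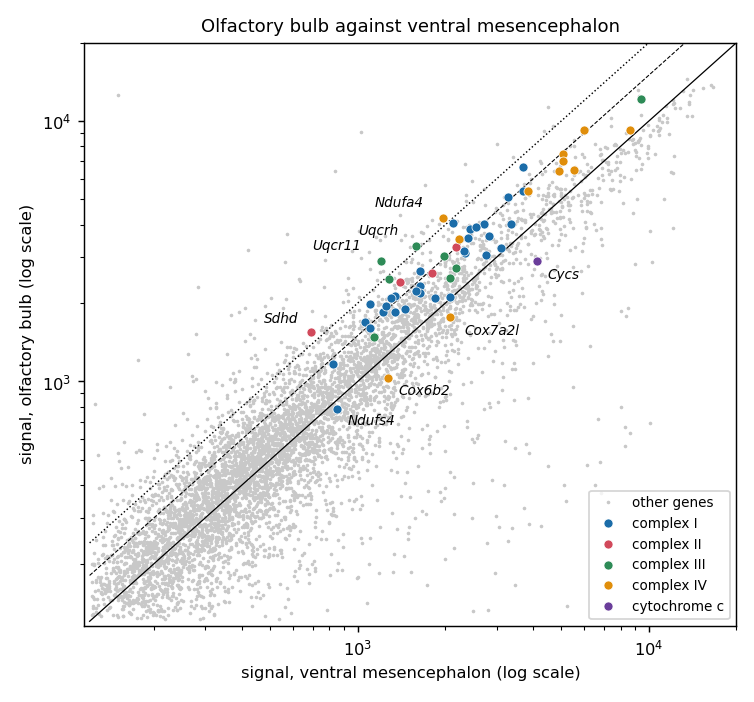
Signal in OB against signal in VM on log axes for the 55 members above the floor on all arrays (coloured by complex) and other genes (grey), with lines of equal signal (solid), 1.5-fold (dashed) and 2-fold (dotted) towards OB. Of the coloured points 22 lie at or beyond the dashed line, and Ndufs4, Cox6b2, Cox7a2l and Cycs lie under the solid one.

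Other cell types moved between the same cultures. OB and HC cultures were alike in summed microglial signal (36216 and 38742), and their median member differed by 0.36 log2. VM and SVZ cultures were alike in having little of it (385 and 586), and their median member differed by 0.31 log2. OB and VM, at the ends of the members' order, had the highest fibroblast marker sums, 60264 and 53430. Markers of dividing cells (9 of 9 above the floor) had their lowest summed signal in OB, 2131, against 3717 in SVZ, 4383 in VM and 5417 in HC. Neuronal markers (3 of 12 above the floor) summed to 4419 in SVZ, 1539 in VM, 580 in OB and 903 in HC. One gene, Stmn2, made up 3465 of the SVZ sum and 1331 of the VM sum. Oligodendrocyte lineage markers (5 of 9 above the floor) summed to 5765 in SVZ, 2033 in VM, 2283 in OB and 6486.5 in HC. Ependymal markers (2 of 2) summed to 1152, 380, 143 and 3066 in that order. The astrocyte marker sum given above was lowest in VM, at 15081. The part of any of these cell types, astrocytes included, in the members' order was not tested.

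In complex I, the NADH dehydrogenase, 31 of the 32 genes were above the floor on all arrays. Of these, 23 were highest in OB (30.6% of all genes) and 24 lowest in VM (27.2%). The 6 core subunits, most of which carry redox centres, had median contrasts of 0.44 in OB and -0.45 in VM, and the 26 accessory subunits 0.38 and -0.30. Ndufs8, an iron-sulfur subunit near the ubiquinone site, had signals of 3300 in SVZ, 2121 in VM, 4075 in OB and 2874 in HC, a 1.92-fold range. Ndufs7, the neighbouring iron-sulfur subunit, measured 1481, 1104, 1976.5 and 1679 in the same order of regions. Both had the same regions at the top and bottom of their range.

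Ndufa13, also known as GRIM-19, had signals of 4448 in SVZ, 3702 in VM, 6670 in OB and 3981 in HC. Ndufv3, a small subunit of the NADH-oxidising arm, measured 2646, 2817, 3634 and 1493 in that order. It had the widest range of any member, 2.43-fold, and it was set apart by HC, 1.77-fold under the next lowest region. It was the only member called lower there. At the other end, Ndufa2 measured 3016, 2750, 3053 and 2829, a 1.11-fold range, and Ndufa10 spanned 1.22-fold. These accessory subunits were nearly level across the cultures.

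Ndufs4, an accessory subunit whose loss impairs complex I, was by its brightest probe set the only complex I gene lowest in OB, at 1161 in SVZ, 848 in VM, 785 in OB and 924 in HC; it is named here after its values were seen. Its lowest region was 1.08-fold under the next. A second probe set near the floor had OB highest, at 133.8 in SVZ, 144.4 in VM, 157.3 in OB and 132.5 in HC, an OB contrast of 0.20 against -0.30, so no direction is given for Ndufs4. Ndufb1 was above the floor on 3 arrays only.

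Complex II, succinate dehydrogenase, also belongs to the citric acid cycle and has no subunit encoded by mitochondrial DNA. By their brightest probe sets all 4 of its genes were highest in OB (30.6% of all genes) and lowest in VM (27.2%). A second probe set of Sdhc did not have this order. Sdha, the flavoprotein that oxidises succinate, measured 2416 in SVZ, 1798.5 in VM, 2611 in OB and 2141 in HC. Sdhb, the iron-sulfur subunit, measured 2698, 2179, 3271 and 2646.

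The membrane anchors had the wider ranges. Sdhc measured 1668 in SVZ, 1395 in VM, 2410 in OB and 1976 in HC. Its second probe set had VM highest, at 405 in SVZ, 664 in VM, 479 in OB and 392 in HC. Sdhd measured 930, 693, 1553 and 1154, a 2.24-fold range, with OB 1.35-fold above HC. By the brightest probe sets HC came next after OB for both anchors, and for Sdha and Sdhb SVZ did.

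In complex III, the cytochrome bc1 complex, 8 of 8 genes were above the floor on all arrays. OB was highest for 5 (30.6% of all genes) and SVZ for 3 (24.5%). The 3 members called at 1.5-fold in OB were all here. Uqcr11, a small accessory subunit, measured 1567 in SVZ, 1200.5 in VM, 2900.5 in OB and 1489.5 in HC, which put OB 1.85-fold above the next region. Uqcrh, the acidic hinge protein that helps dock cytochrome c, measured 1708, 1588, 3304 and 1973, with OB 1.67-fold above the next. Uqcr10, another small subunit, measured 1514, 1284, 2484 and 1204, with OB 1.64-fold above the next. In each of them the other 3 regions lay closer to one another than to OB.

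The catalytic Rieske iron-sulfur protein had another order. Uqcrfs1 measured 2055 in SVZ, 1133 in VM, 1486 in OB and 1623 in HC, so that OB came after SVZ and HC. The core protein Uqcrc2 measured 2872, 2079, 2506 and 2096 in that order. Uqcrb, a ubiquinone-binding subunit, measured 10060 in SVZ, 9418.5 in VM, 12205 in OB and 8354 in HC. Uqcrb and Uqcrc2 had the narrowest ranges of the complex.

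In complex IV, cytochrome c oxidase, 12 of the 17 genes were above the floor on at least 1 array and 11 on all 4. OB was highest for 8 of the 11 (30.6% of all genes), while the lowest region was HC for 5 (24.4%) and VM for 4 (27.2%). Ndufa4, a complex IV subunit once assigned to complex I, measured 2489 in SVZ, 1968 in VM, 4256 in OB and 2884 in HC, a 2.16-fold range. Cox8a measured 2405, 2221, 3528 and 1881, and Cox5b measured 6716, 5065, 7442 and 4512. For Cox8a and Cox5b HC, not VM, was lowest.

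Several complex IV subunits exist as general and tissue-restricted isoforms. The general isoforms Cox4i1, Cox6b1, Cox7a2 and Cox8a were highest in OB and, by its brightest probe set, Cox6a1 in SVZ. Cox4i1 measured 6367 in SVZ, 5515 in VM, 6479 in OB and 4811 in HC. Cox6a1 measured 9880, 8623, 9218 and 6700. A second Cox6a1 probe set had OB highest, at 3512 in SVZ, 2964 in VM, 4206.5 in OB and 2907 in HC. No direction is therefore given for Cox6a1. The muscle-type isoforms Cox6a2 and Cox8b, the testis isoform Cox8c and the hypoxia-responsive Cox4i2 were under the floor on all 4 arrays, with the highest signal of Cox4i2 at 76.7 in SVZ. The muscle-type Cox7a1 was near the floor, at 142.4 in SVZ, 57.5 in VM, 98.3 in OB and 133.2 in HC.

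Cox6b2, known as a testis isoform, was the exception. It was above the floor on all arrays, at 1754 in SVZ, 1270 in VM, 1027 in OB and 1144 in HC. Its general counterpart Cox6b1 measured 7447, 5991, 9238.5 and 6544. OB was thus the lowest region for Cox6b2 and the highest for Cox6b1. Cox7a2l, which takes part in joining complexes III and IV into supercomplexes, had a range of 1.17-fold, with signals of 1951, 2073, 1771.5 and 1860. Its other probe sets had OB highest: one measured 1587 in SVZ, 1747 in VM, 1931 in OB and 1469 in HC, and the other 1336, 1479, 1535.5 and 1202. No direction is given for Cox7a2l.

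Both probe sets of Cox7c, a general subunit, were under the floor on all arrays, the brighter of them measuring 26.7 to 49.2. Whether those probe sets measure the transcript was not tested.

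Cytochrome c, the mobile carrier between complexes III and IV, gave different answers by probe set. The brightest Cycs probe set measured 4837 in SVZ, 4125 in VM, 2893 in OB and 3543 in HC, which made OB lowest by a contrast of -0.52. A second probe set measured 3225, 2470, 3003 and 2344, and another 1592, 1212, 1573 and 1204, with OB contrasts of 0.18 and 0.25. No direction is therefore given for Cycs.

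Probe sets of the other members were mostly alike. Of 35 members with several probe sets, 30 had at least 2 above the floor on all arrays, and the scatter of their contrasts was 0.15 log2. When each of these 30 genes was read from its second-brightest probe set, OB was highest for 20 and VM lowest for 20. The median contrasts were then 0.35 in OB and -0.33 in VM. The highest region was the same by both probe sets for 21 of the 30 genes and the lowest for 22.

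Besides Cycs, 5 members had probe sets more than 1.5-fold apart in a contrast. A second probe set of Cox6c, a general complex IV subunit, gave 2240 in SVZ, 2102 in VM, 1385 in OB and 2340 in HC, an OB contrast of -0.68 against 0.32 from the brightest. A second probe set of Ndufv1, the NADH-binding flavoprotein, had an OB contrast of -0.13 against 0.47, and its remaining probe set had -0.02. Both had SVZ highest. A second probe set of Uqcr10 was near or under the floor (56.7 to 141.9), with an OB contrast of -0.07 against 0.90. Ndufv2, an iron-sulfur subunit, had a HC contrast of -0.17 by its brightest probe set and 0.57 by another, and Sdhc had a VM contrast of -0.52 against 0.65. These genes rest on the choice of probe set.

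**Figure D4:**
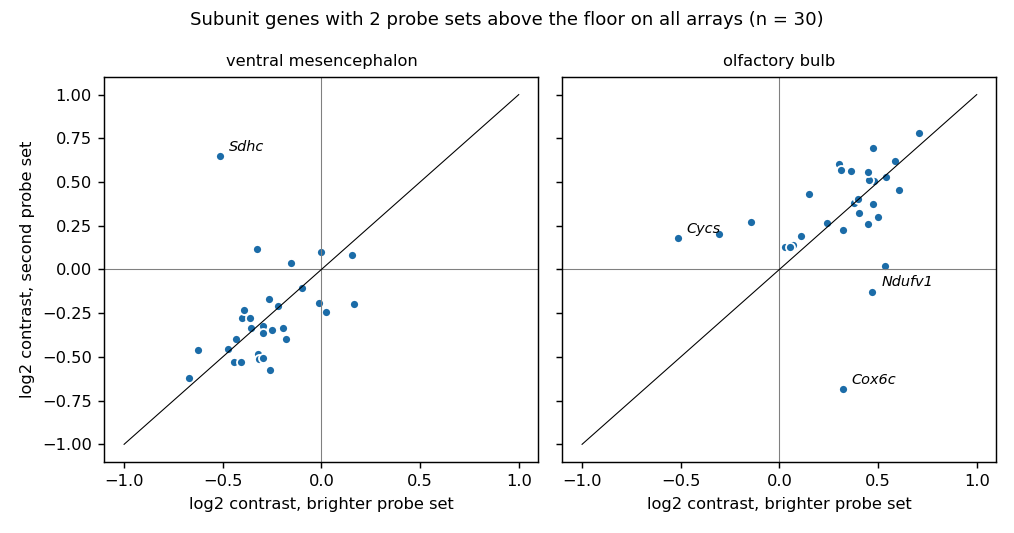
Contrast by the second-brightest probe set against that by the brightest for 30 member genes, as log2 signal less the average of the remaining 3 regions, in VM (left) and OB (right), with a line of equality. Most points are negative on both axes in VM and positive on both in OB, and Sdhc in VM and Cycs, Ndufv1 and Cox6c in OB are among those with opposite signs by the 2 probe sets.

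Lists of neighbouring pathways were read the same way. Counts are over genes above the floor on all arrays, and medians over genes above it on at least 1 array. Of all genes, 30.6% were highest in OB, 24.5% in SVZ and 20.4% in VM, and 27.2% were lowest in VM. ATP synthase, which uses the proton gradient, had the order of the respiratory chain: 16 of 19 genes were highest in OB and 12 lowest in VM, with median contrasts of 0.48 and -0.35. The mitochondrially encoded subunit ND5, the only one read here, did not have that order, at 6336 in SVZ, 3903 in VM, 5770 in OB and 7922 in HC. VM was lowest for it as well.

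Apart from regulators of mitochondrial biogenesis, given below, the other mitochondrial lists had negative medians in VM and medians near 0 in OB. Of 74 mitochondrial ribosomal proteins, which translate the mitochondrially encoded subunits, 39 were lowest in VM, 17 were highest in OB and 36 were highest in SVZ. Of 19 citric acid cycle and pyruvate entry genes, 15 were lowest in VM and 8 highest in OB. That list also holds Pdha1, Pdhb, Pcx and Pdk genes. Of 28 assembly factors of the chain, 14 were lowest in VM, 8 highest in OB and 14 highest in SVZ. The median contrasts in OB were -0.07 for ribosomal proteins, 0.00 for citric acid cycle and pyruvate entry and 0.03 for assembly factors. That of the chain itself was 0.38. The citric acid cycle and pyruvate entry median in OB depended on the setting. It was 0.14 with a lower floor of 25.2 or without shared probe sets and 0.10 with averaged probe sets. It was 0.19 without the SVZ array and 0.22 without the HC array. Antioxidant genes had medians of -0.33 in VM and -0.01 in OB. Their OB median was 0.16 with a higher floor of 360.4, 0.094 without the HC array and -0.20 without shared probe sets.

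Glycolysis and hypoxia genes had positive medians in VM and negative ones in OB. The lists overlap, with Slc2a1 in both. Of 16 glycolysis genes, 0 were highest in OB and 8 were highest in VM. The median contrasts, over 17 genes, were -0.26 in OB and 0.49 in VM. OB was lowest for 4 of the 16 (25.0%, against 25.4% of all genes), VM was lowest for 4 as well, and the HC median was -0.26. The OB median was -0.14 without the SVZ array, -0.15 without the VM array and -0.11 with a higher floor of 360.4. Of 11 hypoxia response genes 8 were highest in VM. The median, over 13 genes, was 1.07 there and -0.42 in OB. Slc2a1, the glucose transporter GLUT1, measured 1360 in SVZ, 2143 in VM, 430 in OB and 1817 in HC, 3.16-fold lower in OB than in the next lowest region. Bnip3, a mitophagy receptor induced by low oxygen, measured 966, 3039, 833 and 1070, and Adm, which encodes adrenomedullin, measured 735, 2068, 449 and 765. Both were highest in VM, by 2.84-fold and 2.70-fold over the next region.

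Not every gene of these lists followed. Egln3, an oxygen-sensing prolyl hydroxylase, measured 182 in SVZ, 553 in VM, 1068 in OB and 545 in HC. Ldhb, a lactate dehydrogenase subunit, measured 9040, 2189, 4120 and 3261, highest in SVZ. Aldoc, a glycolytic aldolase that is also an astrocyte marker, measured 1594, 564, 2884 and 5221. Aldoc and Ldhb were both lowest in VM, against the median of their list.

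Among regulators of mitochondrial biogenesis the median contrast was 0.23 in OB, -0.0036 in VM and -0.38 in HC. Of 10 such genes above the floor on all arrays, 4 were highest in OB (30.6% of all genes) and 3 lowest there (25.4%). VM was highest for 3 (20.4%) and lowest for 2 (27.2%). The HC value ran from -0.51 (quantile normalization) to -0.0044 (lower floor) over the alternatives, and the OB value was 0.12 with the higher floor. Ppargc1b, a coactivator of respiratory chain genes, measured 33.3 in SVZ, 36.2 in VM, 384.2 in OB and 118.1 in HC. It was above the floor in OB only, and at least 3.15-fold higher there than the floor. Nrf1, named here because its motif was counted in the promoters, was under the floor on all 4 arrays.

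**Figure D5:**
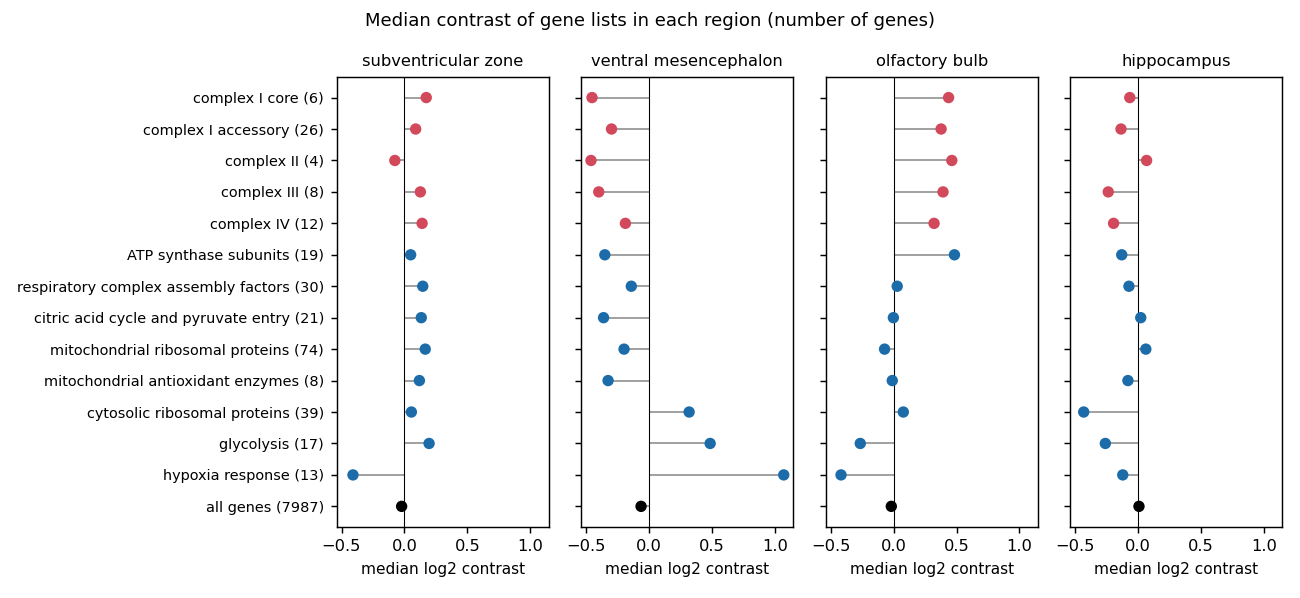
Median contrast of each gene list in each region, as log2 signal less the average of the remaining 3 regions, with its number of genes in brackets; red marks the chain, blue other lists and black all genes. The complexes and ATP synthase lie above 0 in OB and below 0 in VM, and glycolysis and hypoxia genes have the opposite signs.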

How the data were processed

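Each of 4 cultures was measured on 1 Affymetrix array, grouped by the labelled brain region (abbreviated as above). The deposited values are linear signal intensities that the authors made with GCOS 1.4, per the submitters' processing notes. The signal algorithm and scaling target were not given in the sources used here, and no detection calls were used. Intensities were taken as deposited, values under the median signal (122.1) were raised to that floor, and log2 was taken. Each gene was read from its single-gene probe set of highest mean log2 signal. Names came from the platform annotation, and all 62 members matched a RefSeq gene by identifier.

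With 1 array per region no test was run. A gene was called where it lay 2-fold or 1.5-fold beyond every other region, and pairs of regions were counted at the same folds. The number of arrays limits the precision. Genes named are those called, the 4 widest and 2 narrowest of each complex, isoforms and their counterparts, members with probe sets over 1.5-fold apart, and up to 4 genes per other list called at 2-fold. Members and lists were chosen with earlier results of these data known. The counting was tested on simulated data. Alternatives were other floors, quantile and median scaling, averaged or unshared probe sets, all members, and leaving out each array. Probe sets called shared here are all those whose names end in _a_at, _s_at or _x_at. Python 3.11.15, pandas 2.3.3 and numpy 2.4.6 were used.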

Additional observations from a re-analysis of the deposited data

How the results depend on the processing

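No paired analysis was possible because each region has 1 array, numbered replicate 1. Values below are median contrasts unless called counts, and the cause of each change was not tested. Of the 55 members above the floor on all arrays (60 with the lower floor), 39 to 41 were highest in OB and 35 to 42 lowest in VM when all arrays were used, and 27 and 27 of 36 without shared probe sets; 28.5% to 32.9% and 24.2% to 27.7% of all genes were. With a floor of 25.2, calls at 1.5-fold elsewhere numbered 3 (31.3 per 100 of all genes), calls at 2-fold 1 and members higher in SVZ than in VM 5, complex IV stood at 0.19 in OB and hypoxia genes turned to 0.038 in HC. Quantile normalization took HC medians to -0.013 (members), -0.021 (complex I), -0.034 (complex IV), 0.0059 (ATP synthase) and 0.02 (glycolysis), and Uqcrb to 0.063. Median scaling, or averaging probe sets, left 2 members higher in HC than in VM; averaging also gave complex II -0.033 in HC, Sdhc 0.066 in VM and Cox6c -0.18 in OB. Without shared probe sets 38 members remained above the floor on at least 1 array, and Ndufv3, which has 1 probe set, dropped out. Of the 38, 0 were called lower in HC, 1 was higher there than in VM and 25 lay under the mean of the other regions there. Complex III then stood at -0.21, -0.54, 0.66 and -0.050 in SVZ, VM, OB and HC, complex IV at -0.33 in VM, Cycs at 0.25 in OB and glycolysis at 0.51 in HC. With all members at the floor included, complex IV stood at 0.040, -0.081 and 0.15 in the first 3 regions. Set against equally bright genes, an alternative chosen after seeing the data, the members' HC median was -0.038.

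Leaving out each array in turn gave members 0.014 to 0.25 in SVZ, -0.42 to -0.22 in VM, 0.29 to 0.42 in OB and -0.27 to -0.024 in HC. Complex I ranged over -0.0031 to 0.25, 0.27 to 0.40 and -0.26 to -0.0041 in SVZ, OB and HC, its SVZ median turning without VM. Complex II ranged over -0.26 to 0.11, -0.54 to -0.36, 0.35 to 0.55 and -0.11 to 0.25 in the 4 regions. Complex III ranged over 0.042 to 0.34, -0.57 to -0.22 and -0.38 to -0.13, and complex IV over 0.077 to 0.26, -0.33 to -0.14 and -0.30 to -0.15, in SVZ, VM and HC. OB calls at 1.5-fold ranged from 3 to 6, with 6 without SVZ (5.66% of all genes) and 5 without HC (9.89%), and other calls from 0 to 4, where all genes had 30.1 to 31.7 such calls per 100. ATP synthase ranged over -0.27 to 0.0645 and hypoxia genes over -0.31 to 0.30 in HC, and in SVZ antioxidant genes ranged over -0.0078 to 0.31 and hypoxia genes over -0.63 to 0.021; the sign turned without OB for ATP synthase and without VM for the others.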

Other observations

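Cytosolic ribosomal proteins, which build the ribosomes outside mitochondria, had a different order of regions from the respiratory chain. Of 37 genes above the floor on all arrays, 31 were highest in VM (20.4% of all genes) and 37 were lowest in HC (24.4%). The median contrast over the 39 genes above it on at least 1 array was 0.32 in VM and -0.43 in HC. After quantile normalization the medians were 0.14 and -0.10. The HC array also had the lowest 99th percentile of signal, 5619, and the part of that in the HC value was not tested.

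Probe sets annotated to several genes were left out of all counts above. Among them 7 list a respiratory chain subunit beside at least 1 other gene, and 5 of these were above the floor on all arrays. OB was highest for 4 of the 5 and SVZ for 1, while VM was lowest for 3 and HC for 2. Their median contrasts were 0.08 in SVZ, -0.22 in VM, 0.27 in OB and -0.10 in HC.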
